A study of Mus musculus with 8 samples.

Results

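The genes described here are the 35 genes that the deposited annotation places in the DNA replication pathway, out of 22013 genes in the table. They were taken by the pathway annotation, and all 35 had enough counts to be tested among 12366 genes. The libraries were made from poly(A) RNA of mouse blastocysts, each from a pool of 5 embryos. In the 4 agomir libraries, embryos of wild-type ICR mice had developed in KSOM culture medium with a miR-21-5p agomir, a stabilised synthetic mimic of the microRNA, at 50 nM for about 75 h after fertilisation. In the 4 blank control libraries, embryos of the same stock received the vehicle and no oligonucleotide for the same time. Embryos of both groups came from in vitro fertilisation (6 h with sperm) of eggs from hormone-primed ICR females aged 6 to 8 weeks with sperm from ICR males aged 8 to 10 weeks, and ICR is an outbred stock. The control embryos received no other oligonucleotide, so an effect of the miR-21-5p sequence and an effect of any oligonucleotide cannot be told apart. The labels name separate pools as replicates but give no parents or fertilisation sessions, so the spread measured is that between these pools.

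DNA replication begins when the ring-shaped MCM2-7 helicase is loaded at origins and unwinds the double helix. Polymerase alpha with primase then lays down short primers, polymerases epsilon and delta extend the leading and lagging strands while held on DNA by the PCNA clamp, and the RNA primers of the lagging strand are removed and the pieces joined. The cells of the preimplantation embryo divide repeatedly without the embryo growing in size, and the genes of this machinery are also known for their shared control by E2F transcription factors at the start of S phase. MicroRNAs act by pairing of their seed, bases 2 to 8, with sites that lie mainly in the 3' untranslated regions of messenger RNAs.

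To show what the added microRNA could pair with among these transcripts, the mature sequence of mouse miR-21a-5p and the matching sites are printed here. The mature sequence is from RefSeq (GRCm38.p6, chr11:86584120-86584141, minus strand), with the seed in capitals. The sites are from GENCODE release M21 transcripts (GRCm38), with the 7-base match ATAAGCT in capitals and 10 bases on either side.
miR-21a-5p: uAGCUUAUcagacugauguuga
Pcna site: tgcttaaagaATAAGCTccaaagtaaa
Rpa2 site: agaaattccaATAAGCTagtcaggact
Ssbp1 site: atcaagttatATAAGCTaagcttaata
The match was present in the longest annotated 3' untranslated region of 3 of the 35 genes, each with 1 copy, against 8.28% of the 12304 tested genes with such a region. In Pcna, on chromosome 2, it began at base 189 of 457. In Rpa2, on chromosome 4, it began at base 246 of 881, and in Ssbp1, on chromosome 6, at base 2463 of 3807. The other 32 genes, the 6 MCM2-7 genes among them, had no such letters in that region. The levels of Pcna and Rpa2 had a higher mean in agomir libraries and that of Ssbp1 a lower one, and none of the 3 passed the test.

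All libraries expressed the pathway, with Mcm2 at 64.0 to 105 CPM in agomir and 60.9 to 85.6 CPM in control libraries and Pcna at 204 to 294 CPM in agomir and 137 to 276 CPM in control libraries. CPM are counts scaled to a common library total on the TMM scale, which adjusts library totals so that most genes have the same level. Total counts per library lay between 12246102 and 23147449, and the 35 genes together took 0.237% to 0.280% of them in agomir and 0.238% to 0.270% in control libraries. On principal components of all genes, control 2 was the outlying library of the first component (25.0% of variance) and agomir 3 that of the second (21.9%). Several counts and values are therefore also given without agomir 3, control 2 or both. Trophectoderm markers (8 of 8 detected) summed to 2203 to 7175 CPM in agomir and 1863 to 3559 CPM in control libraries, with the highest sum of each group in agomir 3 and control 2. The control 2 sum was mainly Krt8 (1170 CPM) and Krt18 (2016 CPM). Cdx2, Gata3, Krt8, Krt18 and Tead4 were highest of the controls in control 2. Tfap2c, Eomes and Elf5 were not, and Elf5 was lowest of all 8 libraries there (38.96 CPM). All 8 had a higher agomir mean, by log2 fold changes of 0.13 to 0.80, while 4 of the 5 markers of inner cell mass and epiblast had a lower one, down to -0.77 for Klf4. For Krt18 and Tead4 the higher agomir mean rested on agomir 3. Agomir 1, 2 and 4 lay below the control mean for Krt18 (927 to 1089 CPM against 1092) and for Tead4 (16.46 to 19.08 CPM against 20.15). None of these 13 markers passed the test (edgeR). At an unadjusted p under 0.05 the counts were 4 of 8 and 1 of 5, against 6.38% of all tested genes. The markers of a list share libraries and are not independent of each other. Summed levels of markers of the inner cell mass and epiblast (143 to 225 CPM in agomir, 157 to 287 CPM in control) and of primitive endoderm (132 to 195 CPM in agomir, 131 to 187 CPM in control) were present in all libraries. The sums of 10 markers of cumulus and granulosa cells lay between 0.969 and 36.3 CPM in agomir and between 32.1 and 93.4 CPM in control libraries, with Cyp19a1 at 0 throughout. This sum was mainly Hsd3b1 (0.606 to 24.3 CPM in agomir and 27.9 to 79.1 CPM in control libraries) and Inha (0 to 11.3 CPM in agomir and 2.78 to 12.1 CPM in control libraries), and each of the other 8 was at most 1.07 CPM in any library. Sperm and blood markers summed to at most 1.21 CPM in any library, with Acrv1 and Hbb-bs at 0.

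Messenger RNAs of the 35 replication genes differed widely in level per transcript length, as FPKM, the authors' value scaled to transcript length and sequencing depth, shows. The highest was Ssbp1, the single-strand binding protein of mitochondrial DNA, with 308, 316, 282 and 289 FPKM in agomir libraries 1 to 4 and 401, 354, 309 and 323 FPKM in control libraries 1 to 4. The lowest was Dna2, a nuclease and helicase that trims long flaps, with 1.44, 1.71, 1.24 and 0.96 FPKM in agomir and 1.60, 1.84, 0.92 and 1.09 FPKM in control libraries. Both groups overlapped for either gene. Ssbp1, Rfc4 (mean over 8 libraries 292 ± 45.3 FPKM), Rpa3 (238 ± 37.3) and Pcna (157 ± 26.8) were the 4 genes above 100 FPKM (SD, n = 8), and 7 genes were below 10 FPKM. Of the 35 genes, 33 lay above the median of all tested genes, 5.18 FPKM, and the median of the 35 was 22.2 FPKM. In the order of levels, 32 of the 34 pairs of neighbours overlapped in their range over libraries, and the exceptions were Pcna above Rfc3 and Pola1 above Pold1.

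**Figure D1:**
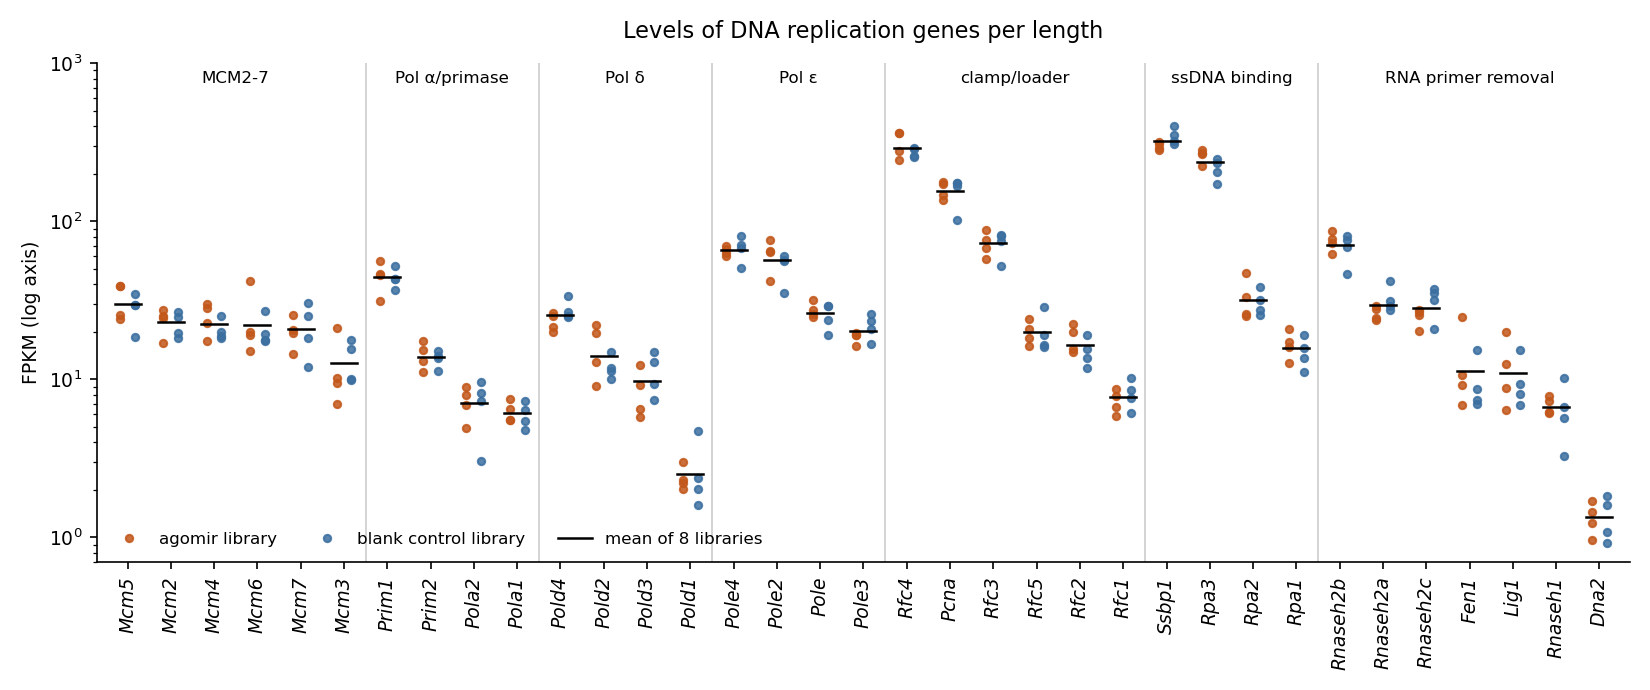
FPKM of each of the 35 genes in every library on a log axis, grouped by role and sorted within a role by mean; orange points are the 4 agomir libraries, blue points the 4 blank control libraries and black lines the mean of 8. Rfc4, Ssbp1, Rpa3 and Pcna lie above 100 FPKM, the 6 MCM2-7 genes lie close together, and Dna2 is lowest at a mean of 1.35 FPKM.

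The MCM2-7 subunits, which form a ring of 1 copy each, had messages of similar level, in which the highest, Mcm5 (30.0 ± 7.35 FPKM), exceeded the lowest, Mcm3 (12.7 ± 4.91 FPKM), by a ratio of 2.56 ± 0.788 (SD over 8 libraries). Ribonuclease H2, a trimer, had a similar ratio of 2.65 ± 0.735 between Rnaseh2b and Rnaseh2c, and polymerase epsilon one of 3.40 ± 0.867 between Pole4 and Pole3. The spread was wider in polymerase alpha-primase, at 7.41 ± 1.95 for Prim1, the catalytic primase subunit, over Pola1, the polymerase subunit. It was 10.8 ± 3.04 in polymerase delta, for Pold4, the smallest subunit, over Pold1, the catalytic one. In replication protein A, Rpa3 exceeded Rpa1, the large DNA-binding subunit, by 15.7 ± 4.37. The clamp loader, replication factor C, had the widest range of these 7 complexes, with Rfc4 exceeding Rfc1, the large subunit, by 39.3 ± 11.2. Across the 35 genes the level was lower where the longest annotated transcript was longer (Spearman's rho -0.449 over n = 35 genes, which share libraries and are not independent replicates). FPKM is itself divided by transcript length, so a negative rho can be partly built in, and it gives no result about levels. In these ratios the highest and lowest subunits were picked by their means, so they are descriptions, and the part of transcript length in them was not tested.

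None of the 35 genes passed the test between agomir and control libraries at an adjusted p of 0.05 (edgeR quasi-likelihood test, Benjamini-Hochberg over 12366 genes), where the background was 0.0% of all genes called. The smallest adjusted p of a replication gene was 0.794 in edgeR's test, for Rpa3. At an unadjusted p under 0.05 the count was 0 of 35 replication genes in edgeR, against 6.38% of all genes, and DESeq2, limma-voom and limma-trend on FPKM also called 0 of 35, adjusted or not. DESeq2 called 0.191% adjusted and 5.82% unadjusted of 18312 genes, all those with any count. Over the 12366 genes, limma-voom called 0.0% and 8.37%, and limma-trend 0.0% and 6.85% or 6.87% by pseudocount. Without agomir 3, 1 of the 35 had an unadjusted p under 0.05 in edgeR's test, against 6.76% of all genes. This was Mcm3, with a lower agomir mean. Other alternatives gave such a p in edgeR's test for genes with a higher agomir mean. These were Pold2 and Rpa3 without agomir 2 (against 6.09% of all genes), and Mcm4 and Pold2 without agomir 4 (6.43%). Rpa3 was also found without control 3 (8.27%) and with the replicate number as a block (5.71%). For 0 of 35 did the 4 agomir libraries lie wholly above or below the 4 controls, against 3.89% of all genes. The mean was higher in agomir libraries for 27 of 35 genes (77.1%), against 50.6% of all tested genes. The 8 trophectoderm markers moved with this direction, being higher on average in agomir libraries in 8 of 8 cases. For Krt18 and Tead4 this rested on agomir 3. The part of these markers in the direction of the replication genes was not tested. Library totals moved the median log2 fold change of all genes to -0.11. With them the agomir mean was higher for 21 of 35, against 36.1% of all genes. The median of the 35 then lay 0.18 above that of all genes, as against 0.17 above it on the TMM scale. The median log2 fold change (agomir over control) was 0.18 for the 35 genes and 0.00 for all genes, with a range over the 35 from -0.25 for Rnaseh2c to 0.61 for Fen1. For 32 of the 35 genes the 95% interval of the log2 fold change lay within -1 to 1, so a change of 2-fold or more was outside the interval of these 32. The intervals of Fen1 (upper bound 1.48), Pold2 (1.11) and Mcm6 (1.07) reached higher, and the lowest bound of all was -0.73. In bulk RNA of whole embryos, more or fewer cells in S phase and more or less message per cell cannot be told apart, and cell numbers were not analysed here. While most replication means were higher in agomir libraries, the sums of cumulus and granulosa markers were mostly lower there (0.969 to 36.3 CPM in agomir and 32.1 to 93.4 CPM in control libraries), and their part in these differences was not tested.

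**Figure D2:**
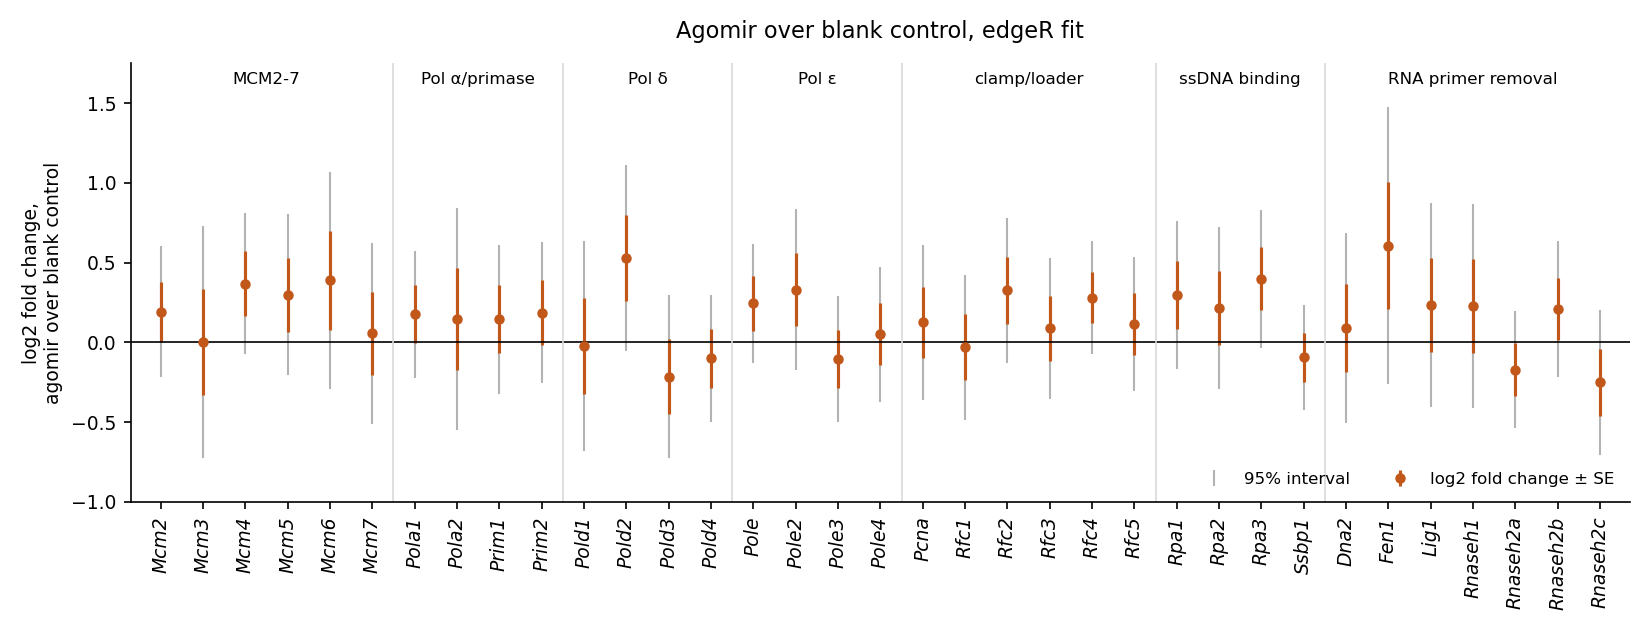
Log2 fold change of agomir over blank control for each of the 35 genes, grouped by role; orange points and bars are the estimate ± SE and grey lines the 95% interval from the edgeR fit. All intervals include 0, and Fen1, Pold2 and Mcm6 have the widest upper ends.

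All 6 MCM2-7 genes, which encode the replicative helicase, had a mean at or above that of controls, and 0 of the 6 passed the test (median log2 fold change 0.25, range 0.00 to 0.39), while with upper-quartile scaling, library totals, limma-voom or FPKM the means of Mcm3 and Mcm7 were lower in agomir libraries. The count of higher means was 3 of 6 without agomir 3 and 5 of 6 without both agomir 3 and control 2. Mcm4 had 80.4, 94.2, 121 and 70.5 CPM in agomir libraries 1 to 4 and 86.4, 59.2, 64.1 and 74.1 CPM in control libraries 1 to 4. Agomir 2 and 3 lay above every control, and the groups overlapped (91.6 ± 22.0 CPM in agomir and 71.0 ± 12.03 CPM in control libraries, log2 fold change 0.37 ± 0.20 SE, and 0.21 without agomir 3). Mcm5 had 67.1, 97.5, 119 and 71.5 CPM in agomir and 75.1, 83.0, 48.4 and 81.8 CPM in control libraries. Again agomir 2 and 3 were above all controls while agomir 1 and 4 were not, and the log2 fold change was 0.30 ± 0.23 SE, or 0.13 without agomir 3. Mcm6 had 43.8, 54.8, 138 and 62.3 CPM in agomir and 53.9, 69.7, 51.6 and 53.2 CPM in control libraries. Here 1 library, agomir 3, was higher than any other library, and the log2 fold change of 0.39 ± 0.31 SE turned to -0.09 without it. Mcm2 had 81.8, 79.3, 105 and 64.0 CPM in agomir and 85.6, 73.9, 60.9 and 68.5 CPM in control libraries, a log2 fold change of 0.19 ± 0.19 SE with overlapping groups, which was 0.06 without agomir 3. Mcm3 had 28.3, 28.9, 73.0 and 23.9 CPM in agomir and 44.8, 47.6, 30.1 and 31.3 CPM in control libraries, so 3 agomir libraries lay below all 4 controls and agomir 3 above them, and the means were 38.5 ± 23.1 CPM in agomir and 38.5 ± 9.05 CPM in control libraries (SD, n = 4 each). Mcm3 was looked at for this pattern after its values were seen.

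On the TMM scale, agomir 3 had the highest level of all 8 libraries for each of Mcm2, Mcm3, Mcm4, Mcm5, Mcm6 and Mcm7. On FPKM, Mcm5 was highest in agomir 2 and Mcm7 in control 2. Relative to the mean of 8 libraries, the average log2 level of the 6 genes was -0.16, 0.01, 0.73 and -0.24 in agomir libraries 1 to 4 and 0.10, 0.10, -0.43 and -0.11 in control libraries 1 to 4. Agomir 3 was thus high and control 3 low, while the other 6 libraries lay between. An E2F motif was found in the RefSeq promoters of Mcm3, Mcm5, Mcm6 and Mcm7, and that of Mcm2, searched alike, held no such letters. Mcm4 was not among the genes with a match, but only 29 of the 35 genes had a promoter to search, so this need not mean that the motif is absent. To show where it lies, the promoters of the 4 genes with a match are printed from 250 bases before to 50 bases after the annotated start (300 bases, GRCm38.p6), with the E2F motif in capitals. The motif was searched as TTTCCCGC, TTTCGCGC, TTTGCCGC and TTTGGCGC on both strands. Mcm3 lies at chr1:20820263-20820562 (minus strand), Mcm5 at chr8:75109259-75109558 (plus), Mcm6 at chr1:128359656-128359955 (minus) and Mcm7 at chr5:138171834-138172133 (minus).
Mcm3: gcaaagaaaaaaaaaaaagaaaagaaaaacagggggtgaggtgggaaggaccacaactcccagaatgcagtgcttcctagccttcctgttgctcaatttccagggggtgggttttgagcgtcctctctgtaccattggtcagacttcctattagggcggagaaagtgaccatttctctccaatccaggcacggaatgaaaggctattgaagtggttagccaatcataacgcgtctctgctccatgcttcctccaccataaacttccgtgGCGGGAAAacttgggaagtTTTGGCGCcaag
Mcm5: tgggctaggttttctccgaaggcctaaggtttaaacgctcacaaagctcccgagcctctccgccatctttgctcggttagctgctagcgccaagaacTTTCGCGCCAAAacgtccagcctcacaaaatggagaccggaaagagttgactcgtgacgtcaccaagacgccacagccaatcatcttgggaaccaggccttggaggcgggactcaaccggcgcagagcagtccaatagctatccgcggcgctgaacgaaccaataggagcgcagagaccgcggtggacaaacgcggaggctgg
Mcm6: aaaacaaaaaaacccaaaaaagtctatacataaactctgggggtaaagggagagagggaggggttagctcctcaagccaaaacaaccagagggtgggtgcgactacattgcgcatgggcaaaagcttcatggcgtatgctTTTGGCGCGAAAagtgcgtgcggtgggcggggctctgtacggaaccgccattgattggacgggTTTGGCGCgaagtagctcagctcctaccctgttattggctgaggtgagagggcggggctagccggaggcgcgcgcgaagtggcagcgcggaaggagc
Mcm7: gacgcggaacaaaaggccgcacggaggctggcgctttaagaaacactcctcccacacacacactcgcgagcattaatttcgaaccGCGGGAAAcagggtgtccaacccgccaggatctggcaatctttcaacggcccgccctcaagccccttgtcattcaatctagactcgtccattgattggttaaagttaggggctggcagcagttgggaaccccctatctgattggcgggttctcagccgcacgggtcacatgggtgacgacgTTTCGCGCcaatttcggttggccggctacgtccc
Motif forms on opposite strands overlapped in Mcm5 and in Mcm6, giving a run of 12 bases that began 153 bases before the start in Mcm5 and 110 bases before it in Mcm6. A second match in Mcm6 began 47 bases before the start. In Mcm3 the matches began 19 and 38 bases after the start, and in Mcm7 they began 165 bases before and 16 bases after it. RefSeq promoters were matched by symbol for 29 of the 35 genes, and 11 of these (37.93%) held the motif, against 2.6% of 27025 genes. The 11 were Mcm3, Mcm5, Mcm6, Mcm7, Pola1, Pold1, Pold3, Pole2, Pole4, Rfc3 and Lig1. A CCAAT box (CCAAT, both strands) was in 16 of 29 (55.17%, against 41.06% of all genes), and TTTGAA, the core of the cell cycle homology region, was in 4 of 29 (13.79%, against 20.23%). Among the genes that were highest in agomir 3, 6 of 14 with a promoter held the E2F motif, and among the rest 5 of 15 did. A match describes letters in a window and was not tested for binding.

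Polymerase alpha-primase, which makes the RNA-DNA primers, had 4 of 4 genes with a higher agomir mean under each scaling of the counts and 0 past the test. The log2 fold changes of Pola1, Pola2, Prim1 and Prim2 lay in a narrow band from 0.14 to 0.19. The count of higher means was 3 of 4 with limma-voom, 3 of 4 without control 2 and 1 of 4 without both control 2 and agomir 3, where Pola2, Prim1 and Prim2 were lower in agomir libraries. The 4 genes were low together in control 2, at an average of -0.57 on the log2 scale relative to the mean of 8 libraries, whereas the other 7 libraries lay between -0.10 and 0.24. Pola2, the regulatory B subunit, had 19.2, 18.3, 18.6 and 12.6 CPM in agomir and 20.7, 6.32, 16.8 and 18.2 CPM in control libraries, with control 2 the lowest of all 8 libraries.

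The leading-strand polymerase, epsilon, had 3 of 4 genes with a higher agomir mean, or 2 of 4 with upper-quartile scaling, library totals, limma-voom or without control 2, a median log2 fold change of 0.15 and 0 past the test. Pole, its catalytic subunit, had 28.9, 31.3, 30.0 and 30.4 CPM in agomir and 30.4, 25.5, 24.9 and 20.96 CPM in control libraries. The agomir libraries were close together, at 30.2 ± 0.997 CPM against 25.5 ± 3.87 CPM in controls (SD, n = 4 each), but control 1 fell within their range. The log2 fold change of Pole was 0.25 ± 0.17 SE. Pole2, the second subunit, had 129, 103, 80.9 and 121 CPM in agomir and 92.0, 52.6, 94.3 and 106.0 CPM in control libraries. Its lowest library was control 2, its agomir 3 value was below 3 of the controls, and its log2 fold change was 0.33 ± 0.23 SE, or 0.16 without control 2. For the lagging-strand polymerase, delta, 1 of 4 genes had a higher agomir mean (median log2 fold change -0.06), or 2 of 4 with the size factors of DESeq2, limma-voom or without control 2. That gene was Pold2, an accessory subunit, with 36.2, 19.7, 36.9 and 16.7 CPM in agomir and 18.4, 21.8, 16.3 and 19.3 CPM in control libraries. Agomir 1 and 3 were above all other libraries and agomir 2 and 4 lay among the controls, for a log2 fold change of 0.53 ± 0.27 SE. Pold2 had the second smallest p of the 35 genes and an adjusted p of 0.797 (edgeR quasi-likelihood test, Benjamini-Hochberg).

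PCNA, the sliding clamp, and the 5 subunits of replication factor C, which opens the clamp and loads it onto DNA, included 5 genes with a higher agomir mean (3 with library totals, 3 without control 2), 1 with a lower one and 0 past the test. Pcna had 204, 250.3, 252 and 294 CPM in agomir and 242, 137, 262 and 276 CPM in control libraries. Control 2 was far below the other controls, the groups overlapped, and the log2 fold change of 0.13 ± 0.22 SE became -0.05 without control 2. GENCODE M21 annotates the pseudogenes Pcna-ps1 and Pcna-ps2, so the counts of Pcna may include reads of these copies. Rfc4, a small subunit of the loader, had 434, 408, 339 and 379 CPM in agomir and 339, 279, 307 and 360 CPM in control libraries. Agomir 1, 2 and 4 were above all controls and agomir 3, the library in which the MCM genes peaked, was the lowest of the agomir group, with a log2 fold change of 0.28 ± 0.16 SE. Rfc2, another small subunit, had 67.6, 71.4, 118 and 69.9 CPM in agomir and 63.1, 77.7, 58.9 and 60.9 CPM in control libraries. Only agomir 3 among the agomir libraries exceeded all controls for Rfc2, and the log2 fold change of 0.33 ± 0.21 SE was 0.10 without agomir 3.

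The single-strand DNA-binding proteins comprised the 3 subunits of replication protein A, which coat the unwound strands, and Ssbp1, with 3 of 4 means higher in agomir libraries (2 of 4 without agomir 3) and 0 past the test. Rpa3, the small subunit, had the smallest p of all 35 genes, with 178, 139, 217 and 202 CPM in agomir and 150, 102, 164 and 142 CPM in control libraries. Agomir 1, 3 and 4 were above every control, while agomir 2 lay below 3 of them. The means were 184 ± 34.1 CPM in agomir and 139 ± 26.6 CPM in control libraries (SD, n = 4 each), a log2 fold change of 0.40 ± 0.20 SE with a 95% interval from -0.03 to 0.83, and 0.19 without both agomir 3 and control 2. Rpa1 had 47.5, 49.0, 74.1 and 43.2 CPM in agomir and 46.3, 51.9, 33.4 and 42.4 CPM in control libraries, where agomir 3 was highest and control 3 lowest, for a log2 fold change of 0.30 ± 0.21 SE, or 0.10 without agomir 3. Ssbp1 had 297, 284, 308 and 312 CPM in agomir and 366, 299, 296 and 321 CPM in control libraries. The mean difference of this mitochondrial protein's message was small and in the lower direction, -0.09 ± 0.15 SE on the log2 scale.

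**Figure D3:**
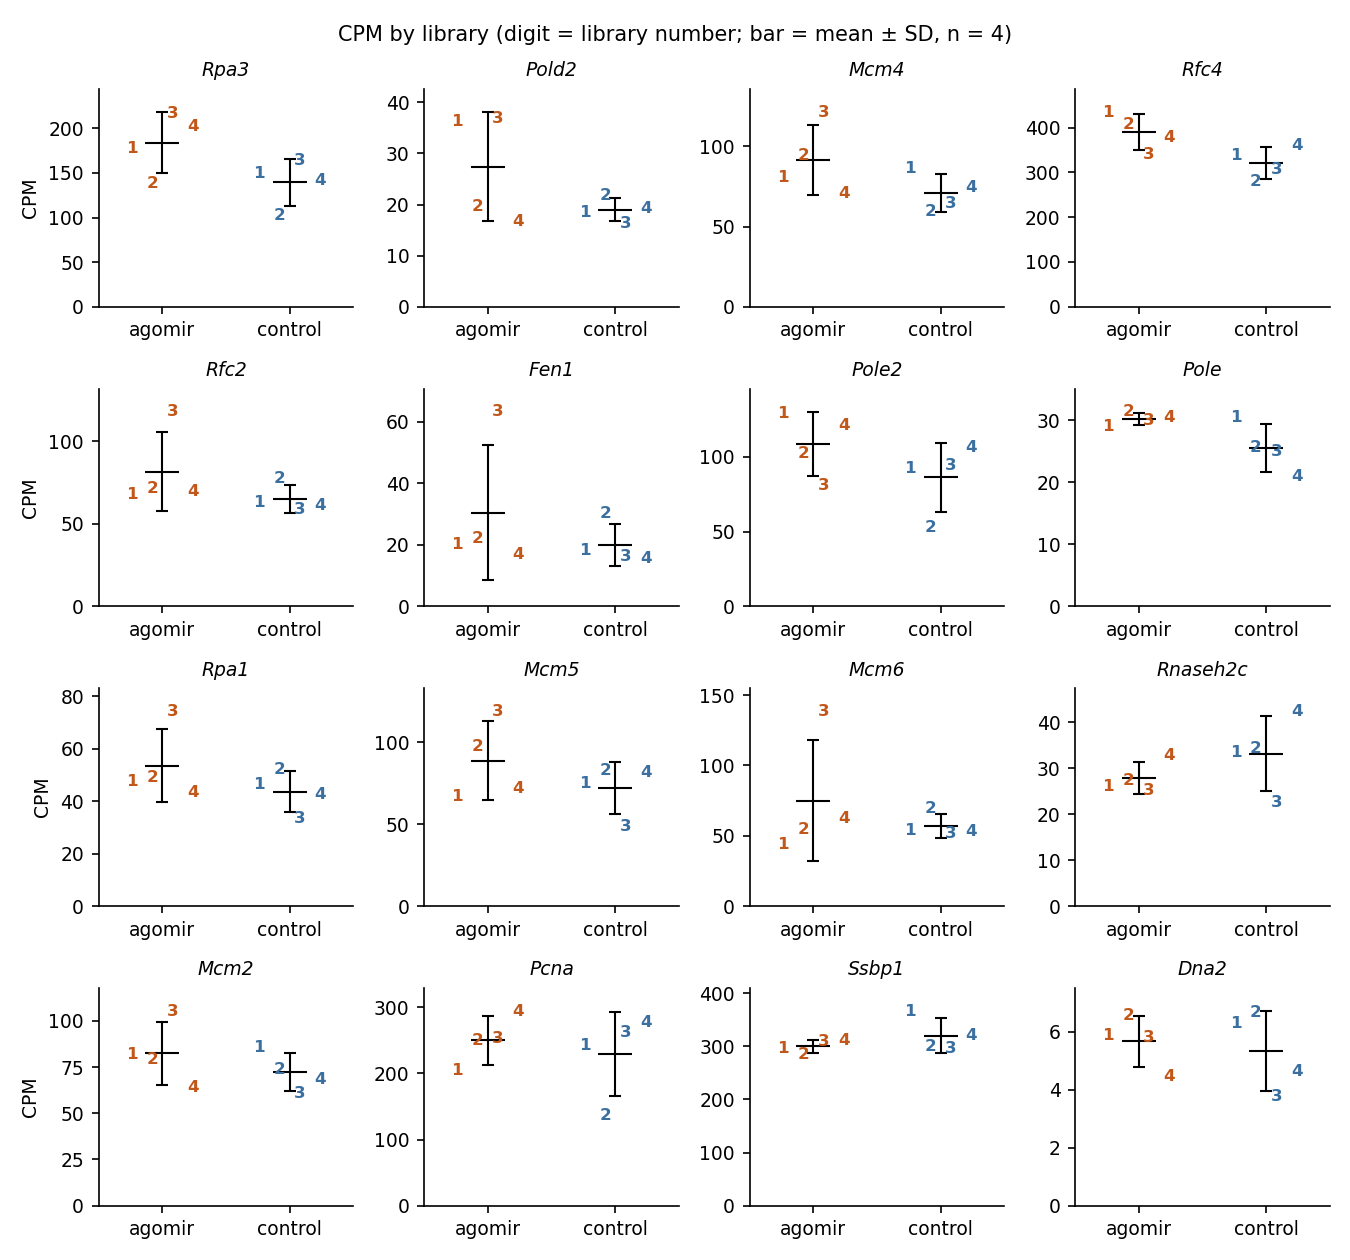
CPM of the 12 replication genes with the smallest p and of Mcm2, Pcna, Ssbp1 and Dna2, with agomir libraries on the left and blank controls on the right of each panel; digits are library numbers and black bars the mean ± SD of 4 libraries. The groups overlap in all 16 panels, and agomir 3 is the topmost digit for Rpa3, Mcm4, Rfc2, Fen1, Rpa1, Mcm5, Mcm6, Mcm2 and Pold2.

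Of the 7 genes that remove RNA primers and join Okazaki fragments, 5 had a higher agomir mean (4 with library totals, 3 without agomir 3), 2 a lower one and 0 passed the test. Fen1, the flap endonuclease, had the largest log2 fold change of the 35 genes, with 20.0, 21.9, 63.1 and 16.8 CPM in agomir and 18.0, 30.2, 16.1 and 15.5 CPM in control libraries. Agomir 3 stood alone, since the other 3 agomir libraries lay within the range of the controls. The log2 fold change was 0.61 ± 0.40 SE and turned to -0.02 without agomir 3. Lig1, the ligase that seals the fragments, showed a like order, with 27.0, 32.2, 54.0 and 22.1 CPM in agomir and 25.7, 42.1, 21.1 and 25.9 CPM in control libraries, and the highest libraries were again agomir 3 and then control 2. Without agomir 3 the agomir mean of Lig1, like that of Fen1, was the lower one. Rnaseh2c, a structural subunit of ribonuclease H2, had 26.1, 27.3, 25.2 and 32.8 CPM in agomir and 33.5, 34.2, 22.5 and 42.3 CPM in control libraries. Controls 1, 2 and 4 were above every agomir library and control 3 was below them all, for a log2 fold change of -0.25 ± 0.21 SE, the lowest of the 35. Dna2 had 5.87, 6.57, 5.82 and 4.45 CPM in agomir and 6.28, 6.69, 3.77 and 4.62 CPM in control libraries, with a log2 fold change of 0.09 ± 0.27 SE (0.22 without control 2) and a sign that changed with the scaling of the libraries. The other 16 genes had log2 fold changes from -0.22 to 0.23, 10 of them above 0.

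Agomir 3 was the highest of 8 libraries for 17 of the 35 genes (48.6%), against 19.4% of all tested genes. They were the 6 MCM2-7 genes, Rpa1, Rpa2, Rpa3, Prim1, Prim2, Pold2, Pold3, Rfc1, Rfc2, Fen1 and Lig1. Control 3 was the lowest library for 11 genes (31.4%, against 10.8% of all genes), and control 2 was the lowest for 10 (28.6%, against 21.5%) and the highest for 6. The 10 genes lowest in control 2 were Mcm4, Pcna, Pola2, Prim2, Pole2, Pole4, Rfc3, Rfc4, Rnaseh2b and Rpa3. With library totals in place of TMM scaling, agomir 3 was the highest for 9 of 35 (25.7%, against 8.43% of all genes), and on FPKM for 10 (28.6%, against 8.94%). The mean log2 deviation of the 35 genes was -0.06, 0.03, 0.36 and -0.04 in agomir libraries 1 to 4 and 0.01, -0.05, -0.20 and -0.05 in control libraries 1 to 4, where agomir 3 stood above and control 3 below the rest. These deviations are on the TMM scale, whose factor was smallest for agomir 3 (0.8787), which raises its values. As a share of unscaled counts the 35 genes took 0.271% in agomir 3 and 0.280% in agomir 2. Without agomir 3 the median log2 fold change of the 35 genes was 0.08, and 21 were above 0, against 46.5% of all genes. Without both agomir 3 and control 2, an alternative chosen after seeing the data, the median was 0.05. Again 21 were above 0, against 48.6% of all genes.

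**Figure D4:**
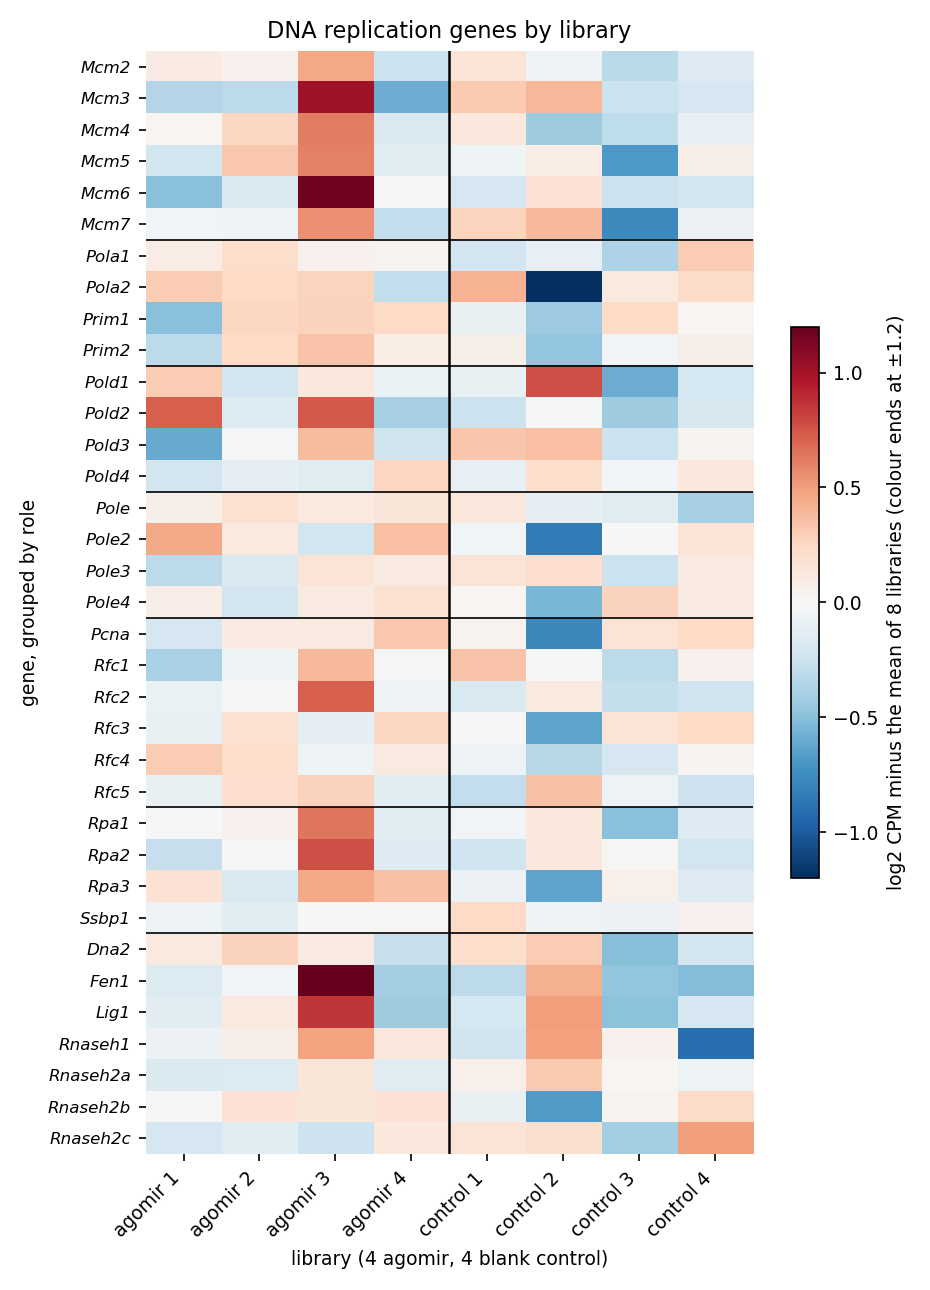
Log2 CPM of each of the 35 genes in each library minus the mean of 8 libraries, agomir libraries to the left of the black line and blank controls to the right, genes grouped by role in rows. The column of agomir 3 is red for the 6 MCM2-7 genes, Fen1 and Lig1, and control 2 is dark blue for Pola2, Pole2 and Pcna.

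Other measures moved with agomir 3. Of the 8 trophectoderm markers, 7 were also highest in this library, and they summed to 7175 CPM there, against 2203 to 2652 CPM in the other agomir libraries and 1863 to 3559 CPM in controls. Krt8 and Krt18, the keratins of this epithelium, made up most of the sum, with 2907 and 3539 CPM in agomir 3. Of the markers of inner cell mass and epiblast (5 detected) and of primitive endoderm (5 detected), 0 of 5 and 0 of 5 were highest in agomir 3. The cumulus and granulosa sum was lowest in agomir 3 at 0.969 CPM, against 10.9 to 36.3 CPM in the other agomir libraries. The part of trophectoderm or cumulus cell content in the high replication values of agomir 3 was not tested.

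**Figure D5:**
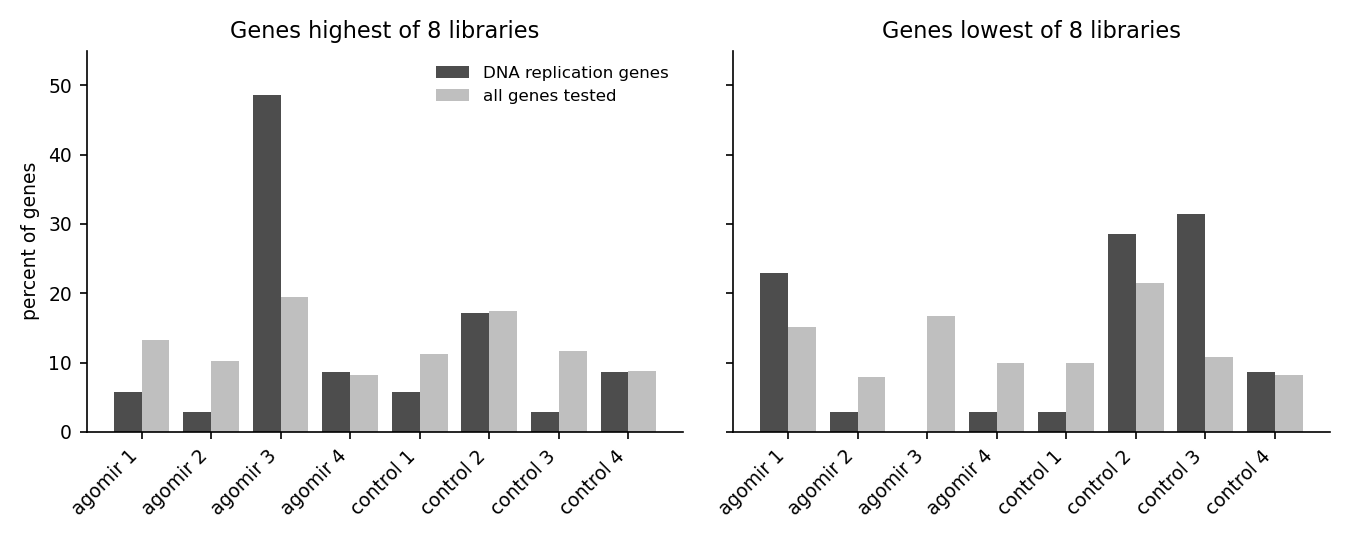
Percent of the 35 DNA replication genes (dark) and of all tested genes (light) for which each library held the highest (left) or the lowest (right) CPM of 8; agomir libraries stand left of blank controls. Agomir 3 is highest for 48.6% of the 35 genes against 19.4% of all genes, and control 3 lowest for 31.4% against 10.8%.

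Beyond the annotated pathway, 78 further genes of replication in 9 lists drawn from textbook knowledge were all tested, and 0 passed (edgeR), with 53 means higher and 25 lower in agomir libraries (median log2 fold change 0.12), against 50.6% of all genes higher. With library totals 40 were higher and 38 lower, against 36.1% of all genes higher. Without agomir 3 the counts were 48 and 30, against 46.5% of all genes higher. At an unadjusted p under 0.05, 2 of 78 were found, Tk1 and Cdc6, against 6.38% of all genes. On the TMM scale, for 2 of 78, Tk1 and Tyms, all 4 agomir libraries lay above all 4 controls. The groups did not overlap for 3.89% of all genes. Tk1, the thymidine salvage kinase, had 148, 158, 218 and 199 CPM in agomir and 107, 130, 129 and 132 CPM in control libraries. With groups fully apart, its log2 fold change was 0.54 ± 0.17 SE and its adjusted p 0.678 (edgeR quasi-likelihood test, Benjamini-Hochberg). Tyms, which makes thymidylate, had 337, 324, 311 and 338 CPM in agomir and 259, 232, 292 and 299 CPM in control libraries, a log2 fold change of 0.28 ± 0.15 SE, or 0.17 with library totals. Rrm2, a subunit of ribonucleotide reductase, had a log2 fold change of 0.41 ± 0.20 SE with overlapping groups, or 0.27 without agomir 3, and 7 of the 12 genes of nucleotide supply had a higher agomir mean (6 with library totals).

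Among 10 genes of origin licensing, 7 had a higher agomir mean. Cdc6, which helps to load the MCM ring, had 44.5, 46.7, 90.9 and 49.7 CPM in agomir and 35.0, 51.5, 33.3 and 34.5 CPM in control libraries. Agomir 3 and control 2 were each the highest of their group, as for Fen1, Mcm6 and Lig1, and the log2 fold change was 0.59 ± 0.25 SE, or 0.29 without agomir 3 (adjusted p 0.762, edgeR quasi-likelihood test with Benjamini-Hochberg). For Orc3, an origin recognition subunit, it was 0.35 ± 0.26 SE, or 0.14 without control 2. Of 14 genes of origin firing, 9 had a higher mean (7 with library totals, 6 without agomir 3), with Gins2, part of the active helicase, at a log2 fold change of 0.36 ± 0.17 SE (0.22 without both agomir 3 and control 2) and Ticrr, needed to load Cdc45, at -0.24 ± 0.17 SE. All 9 genes listed under fork protection and alternative clamp loading had a higher agomir mean (median log2 fold change 0.27). The count was 6 of 9 with library totals, 6 of 9 without agomir 3 and 5 of 9 without both agomir 3 and control 2. Slbp, which binds histone messages and belongs to neither class, was counted among the 9. Timeless, of the fork protection complex, had the smallest p among them, at a log2 fold change of 0.54 ± 0.26 SE that was 0.30 without agomir 3. Of 8 chromatin assembly genes, 7 had a higher mean (5 with library totals), with Chaf1a, the large subunit of chromatin assembly factor 1, at a log2 fold change of 0.83 ± 0.44 SE, which was 0.36 without agomir 3 and 0.09 without both agomir 3 and control 2. Topoisomerases had 3 of 4 means higher, with Top2a at 0.32 ± 0.18 SE, and the MCM8-9 list had 2 of 3. The lists of translesion polymerases with their regulators (4 of 8 higher, median 0.02) and of the replication stress checkpoint (5 of 10 higher, median 0.02) were split. Atr, the checkpoint kinase, was at -0.15 ± 0.20 SE. With library totals 2 of 8 and 2 of 10 were higher, against 36.1% of all genes. Without control 2 the counts were 2 of 8 and 3 of 10, against 51.2% of all genes.

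The pathway's genes also served other annotated pathways in the deposited table: 18 of 35 were listed under nucleotide excision repair (of 57 genes there), 16 under base excision repair (of 44) and 15 under mismatch repair (of 23). Homologous recombination held 8 and the cell cycle pathway 7. No other pathway listed 9 genes, which were the 4 of polymerase alpha-primase, Dna2, Rnaseh1 and the 3 of ribonuclease H2. Dna2, Fen1 and Ssbp1 carried a mitochondrial term.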

How the data were processed

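Per the file headers, the deposited table gives a count and an FPKM value per gene and library. Build GRCm39 and, among other tools, HISAT2 2.1.0, RSEM and StringTie 1.3.1 are named in the submitters' processing notes. What each did, and whether counting used strand, is not stated there. Since 1212 of 176104 deposited count values were not whole, they were taken to be estimated counts (expected counts) and rounded. None of the 280 count values of the replication genes needed rounding. The authors' FPKM, scaled by length and depth, served for levels between genes and as an alternative (limma-trend on log2(FPKM + 1) and log2(FPKM + 0.1)).

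Genes were filtered with filterByExpr (minimum count 10, total 15), and the comparison used edgeR 4.0.16 under R 4.3.3 (TMM, robust quasi-likelihood F test, no covariate, Benjamini-Hochberg over 12366 genes, threshold 0.05). Total counts lay between 12246102 and 23147449. The fit's common biological coefficient of variation, the spread between libraries of a group, was 0.32. Each SE is the absolute log2 fold change over the square root of F. The 95% intervals use the fit's t distribution. Alternatives used DESeq2 1.42.0 and limma 3.58.1. The procedure was tested on simulated counts, drawn without outlying libraries. It called 37.6% of 2-fold and 90.7% of 4-fold changes at the threshold, with 0% and 6.38% of the calls false. Most simulated 2-fold changes were thus missed. Means are given ± SD over n = 4 libraries per group.

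The members and lists were chosen with earlier results of these data known. Values were given in full for the 12 genes with the smallest p, for Mcm2, Pcna and the highest and lowest gene by FPKM. Up to 3 genes with the smallest p were eligible from each further list. Mcm3, Pola2 and Lig1 were added after their values were seen. Promoters and the microRNA came from RefSeq tables (GRCm38.p6) and 3' untranslated regions from GENCODE M21 by Ensembl identifier, and no coordinates were combined with those of the deposited build.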

Additional observations from a re-analysis of the deposited data

Results flagged for a closer look

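In 11 of 124 groups of 4 libraries looked at, 1 library lay far from the other 3 of its group by Dixon's criterion. For independent, normally distributed values chance gives about 1 in 20. The genes here share libraries, and some were picked for a small p, so the count cannot be set against that rate. Agomir 3 was the high library for Mcm3 (72.99 CPM, the others 23.9 to 28.9), Fen1 (63.11 CPM, the others 16.8 to 21.9), Rfc2 (117.8 CPM, the others 67.6 to 71.4), Rnaseh2a (39.73 CPM, the others 31.7 to 32.5) and Cdc6 (90.86 CPM, the others 44.5 to 49.7). Control 2 was the high library of its group for Mcm6 (69.71 CPM, the others 51.6 to 53.9), Fen1 (30.19 CPM, the others 15.5 to 18.0) and Cdc6 (51.5 CPM, the others 33.3 to 35.0). Low libraries were agomir 4 for Pola2 (12.58 CPM, the others 18.3 to 19.2), agomir 1 for Prim1 (48.79 CPM, the others 81.7 to 83.7) and control 1 for Tk1 (106.9 CPM, the others 129 to 132). Fen1 and Cdc6 thus each had a high library in both groups, agomir 3 and control 2, which were also the libraries with the highest sums of trophectoderm markers in their groups. In control 2 that sum was mainly Krt8 and Krt18, and the markers Tfap2c, Eomes and Elf5 were not highest of the controls there.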

How the results depend on the processing

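Under each of the 19 alternatives 0 of the 35 replication genes were called, the median log2 fold change of the 35 stayed between 0.05 and 0.22, and 21 to 28 of them had a higher agomir mean (leaving out 1 library at a time: median 0.08 to 0.22, counts 21 to 28). The number of genes highest in agomir 3 was 17 on the TMM scale, 9 with library totals and 10 on FPKM. A sign other than the main one appeared under at least 1 alternative for 16 of the 35 genes. Dna2 turned to -0.0237 with library totals, and to -0.004 and -0.0074 on log2(FPKM + 0.1) and log2(FPKM + 1). Hrob turned to 0.18 with limma-voom. Without agomir 3 and control 2 together, Pcna was at -0.0573, Slbp at -0.0165, Polk at -0.0945 and Hrob at 0.24. Leaving out 1 library at a time gave log2 fold changes from -0.0868 to 0.58 for Mcm6, -0.0234 to 0.88 for Fen1, -0.0528 to 0.23 for Pcna, -0.0383 to 0.22 for Dna2, -0.20 to 0.0258 for Top2b, -0.37 to 0.14 for Hrob and -0.0043 to 0.34 for Polk. The cause of these changes was not tested beyond the library or scaling named. Deviations from the group means correlated weakly between same-numbered libraries (-0.07, -0.06, -0.14 and 0.12). Libraries of different number were not compared, so these values cannot show whether the numbers pair the libraries. With the replicate block the median was 0.18, 27 genes had a higher mean and 0 were called. With 4 pools a group, the median SE of a log2 fold change was 0.21 for the replication genes and 0.27 for all genes.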
